A study of Mus musculus with 6 samples.

Results

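The respiratory chain of the mitochondrial inner membrane was followed gene by gene in pancreatic tumours of KPC mice, with its nuclear genes set against its mitochondrial ones. The members were taken by gene symbol from the feature lists of the deposited matrices: the Nduf genes without the Ndufaf assembly factors, Sdha to Sdhd, the Uqcr genes, Cox4 to Cox8, the Atp5 genes, and the 13 protein genes of mitochondrial DNA, each with at least 100 UMIs (unique molecular identifiers, counted as RNA molecules) over the 6 libraries. The symbols matched 99 genes, and 96 of the 32285 features were kept: 83 nuclear and 13 mitochondrial. The members were thus chosen by symbol and selected on their UMI total, the only measured value used. Just under it lay Cox8b with 25 UMIs, Cox7b2 with 10 and Cox8c with 4, and just above it Cox6a2 with 376, Cox4i2 with 2068 and Cox7a1 with 2319. By symbol, complex I had 39 nuclear and 7 mitochondrial members, complex II 4 nuclear, complex III 8 nuclear and 1 mitochondrial, complex IV 15 nuclear and 3 mitochondrial, and complex V 17 nuclear and 2 mitochondrial. Cyc1, the cytochrome c1 subunit of complex III, lies outside these symbols. Ndufa4 was counted with complex I by its symbol, although its protein is known as a subunit of complex IV. Ndufb1-ps, the mouse symbol for an NDUFB1 subunit gene, is annotated in GENCODE M21 as a long non-coding RNA.

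The treated group was 3 KPC mice (KrasLSL.G12D/+; p53LSL.R172H/+; Pdx1-Cretg/+) given trametinib, an inhibitor of the kinase MEK, at 1 mg/kg by mouth together with hydroxychloroquine, a drug that blocks lysosomal breakdown, at 40 mg/kg by mouth. The vehicle group was 3 KPC mice given corn oil and water. Ultrasound put the tumours at 4 to 7 mm when mice entered, assignment was random, and tissue was taken at 24 hours, dissociated with a Miltenyi tumour kit and profiled with 1 10x Genomics library per mouse. All 6 mice carry both mutant alleles, and the Pdx1 promoter drives Cre in the pancreatic epithelial lineage, so stromal, vascular and immune cells of the same tumours hold the alleles in unrecombined form.

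The respiratory chain passes electrons from NADH through complex I, or from succinate through complex II, to complex III and on to complex IV, which reduces oxygen, while complexes I, III and IV pump protons and complex V, the ATP synthase, lets them back to make ATP. Nuclear and mitochondrial DNA each encode subunits of complexes I, III, IV and V, and complex II is wholly nuclear. The mitochondrial genes are transcribed as long precursors from both strands and processed into shorter RNAs inside the organelle, whereas nuclear subunit genes answer to transcription factors such as NRF1 and the ETS factor GABP.

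Neighbouring mitochondrial genes share bases, which bears on how reads can be assigned between them. In mm10, mt-Atp8 (ATP synthase subunit 8) and mt-Atp6 (subunit a) overlap by 43 bases on the plus strand (chrM:7927-7969), and mt-Nd4l ends inside mt-Nd4, both complex I subunits, with 7 shared bases (chrM:10167-10173). The 43 shared bases are shown with the start codon of mt-Atp6 and the stop codon of mt-Atp8 in capitals, and the last 30 bases of mt-Nd4l (chrM:10144-10173, plus strand) with the shared bases in capitals.
mt-Atp8 and mt-Atp6 overlap: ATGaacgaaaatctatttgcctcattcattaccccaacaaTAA
end of mt-Nd4l: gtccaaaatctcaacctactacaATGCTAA
Gene positions for these are those of GENCODE M21 on GRCm38. mt-Nd5 and mt-Nd6 also overlap, by 14 bases on opposite strands, and mt-Atp6 and mt-Co3 by 1 base.

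Among nuclear members, 66 of 83 matched a RefSeq promoter window of GRCm38.p6 (250 bases before to 50 after the start). The NRF1 motif, spelled GCGCA, then any base, then GCGC and read on both strands, occurred in 17 of the 66 (25.8%) and in 5.19% of 27025 promoters, and the ETS motif CCGGAAG in 17 of the 66 (25.8%) and in 9.93% of all promoters. Both motifs occurred together in 4 of the 66 (6.06%) and in 1.12% of all promoters. By complex, the NRF1 motif occurred in 7 of 33 windows of complex I, 2 of 3 of complex II, 1 of 5 of complex III, 1 of 11 of complex IV and 6 of 14 of complex V. A match describes these letters and is not evidence of binding. As examples, the stretches below come from the minus strand at Cox6a1 (chr5:115348959-115349208), a complex IV subunit gene whose level set 1 library apart, and at Atp5k (chr5:108434400-108434649), a complex V subunit gene that was highest in tumour cells, with motif matches in capitals. Cox6a1 has 2 NRF1 matches followed by 1 ETS match, and Atp5k has 1 NRF1 match; its ETS match lies in the window beyond the stretch shown.
Cox6a1 promoter: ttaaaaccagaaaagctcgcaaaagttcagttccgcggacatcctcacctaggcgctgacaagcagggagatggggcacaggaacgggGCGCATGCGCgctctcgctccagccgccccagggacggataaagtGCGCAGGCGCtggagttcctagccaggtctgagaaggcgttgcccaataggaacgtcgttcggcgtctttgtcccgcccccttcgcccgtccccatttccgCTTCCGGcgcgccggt
Atp5k promoter: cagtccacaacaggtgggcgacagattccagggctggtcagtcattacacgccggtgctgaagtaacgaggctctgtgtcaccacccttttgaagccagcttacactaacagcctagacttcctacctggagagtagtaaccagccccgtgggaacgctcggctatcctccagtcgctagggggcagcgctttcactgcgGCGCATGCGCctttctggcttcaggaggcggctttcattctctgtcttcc

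The libraries held 2384 to 12207 barcodes and 22996012 to 126645602 UMIs, and 37002 of 44819 barcodes were kept as cells. Clusters were made without the members and named from marker sets, so that a class name means cells like that type; 7 classes had at least 20 cells in every mouse and were tested. Tumour and ductal epithelial cells numbered 718 to 3851 per mouse, fibroblasts 118 to 1364, endothelial cells 48 to 330, macrophages and monocytes 453 to 2945, neutrophils 259 to 2621, T and NK cells 42 to 369, and B cells 20 to 799. The 10 tumour and ductal markers summed to 4350, 3395 and 9263 CPM (counts scaled to a common total of UMIs in each class and mouse) in that class in treated mice and 3610, 13319 and 7292 CPM in vehicle mice, against 64.6 to 475 CPM in endothelial cells. The 7 endothelial markers summed to 5876 to 7773 CPM in endothelial cells over the 6 mice. Barcodes with over 20% mitochondrial UMIs, which were left out, made up 19.8%, 7.76% and 13.8% in treated mice, against 3.86%, 8.19% and 5.60% in vehicle mice. Pairs of libraries shared 0 to 24 barcodes.

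Vehicle 1 stood apart from the other 5 libraries in the members themselves. The sample titles carry a code per mouse, whose letters are KA for vehicle 1 and KU for the other 5 and whose numbers are consecutive for treated 1 and treated 2; the labels do not say what the codes stand for. Its barcodes also came from a different set: 25.7% to 25.9% of them began with 7 bases seen in another given library, against 99.8% to 100% between the other 5. In all 7 classes, 26 of the 83 nuclear members were highest in vehicle 1, and 5 of the 13 mitochondrial members were lowest there. Class by class, 38.5% to 84.6% of mitochondrial members were lowest in vehicle 1, beside 26.9% to 49.3% of all genes tested. Ndufa3, a small accessory subunit of complex I, had 84.8, 85.2 and 80.4 CPM in endothelial cells of treated mice and 557, 93.1 and 112 CPM in those of vehicle mice. In fibroblasts it had 105, 118 and 115 CPM in treated mice and 616, 95.1 and 125 CPM in vehicle mice. Vehicle 1 alone was high. Across the 7 classes the median log2 difference of vehicle 1 from the other 5 mice was 2.39 for Ndufa3, 1.56 for Ndufb1-ps, 1.45 for Cox6a1 and 1.43 for Ndufa1, and it was -2.58 for mt-Nd6, -2.00 for mt-Nd4l and -1.53 for mt-Cytb. Class by class, 57.8% to 86.7% of nuclear members were highest in vehicle 1, against 15.8% to 23.4% of all genes tested. Markers of neutrophils summed to 2618 CPM in the fibroblasts of vehicle 1 and to 60 to 267 CPM in those of the other mice; their part in the members' levels was not tested. Because of vehicle 1, the medians, the counts of separate groups and the adjusted p-values that results turn on are mostly given without it as well.

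Most nuclear members have short transcripts, and the excess in vehicle 1 was more common among the shorter ones. The median transcript length was 669.5 bases for the 82 nuclear members with a coding transcript and 2161 bases for 14541 other protein-coding genes tested. It was 571 bases for members highest in vehicle 1 in all 7 classes and 763 bases for those highest in 1 to 6 classes. In tumour cells, vehicle 1 was the highest mouse for 35 of 50 members under 800 bases (70.0%) and 14 of 26 from 800 to under 1600 bases (53.8%), and for 26.6% and 24.1% of other genes of the same lengths. Single genes did not all follow this annotated length. It is the median over a gene's protein-coding transcripts and need not be that of the RNA expressed. Sdha, the catalytic flavoprotein of complex II, and Ndufs1, the largest subunit of complex I, were highest in vehicle 1 in 0 of 7 classes. Their annotated medians were 1811 and 651 bases. Of the members with the longest annotated medians, Atp5g1 (2675.5 bases) was highest in vehicle 1 in 4 classes, Atp5a1 (2572.5) in 1 and Ndufb2 (2413) in 5. The lengths were looked up after the values had been seen.

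Among the 7 tested classes, the nuclear members held their largest share of RNA in tumour and ductal cells. They made up 2.48%, 2.39% and 2.13% of the UMIs of that class in treated mice, against 3.72%, 2.42% and 2.45% in vehicle mice, above the other 6 tested classes in 6 of 6 mice. Pericytes and smooth muscle cells, not tested since vehicle 1 had under 20 of them, held 2.01%, 1.83% and 1.82% in treated mice, against 2.47% in vehicle 2 and 2.62% in vehicle 3, which is above the tumour cells of those 2 vehicle mice. Fibroblasts held 1.83%, 1.87% and 1.85% in treated mice, against 2.94%, 2.08% and 2.12% in vehicle mice. Of the tested classes, B cells held the least in 4 mice and neutrophils the least in treated 3 and vehicle 3, where they had 0.935% and 1.05%. The mitochondrial members followed another order. Neutrophils had the lowest mitochondrial share of the tested classes in 6 of 6 mice, with 2.35%, 3.84% and 2.38% in treated mice, against 1.41%, 3.25% and 1.65% in vehicle mice. Tumour cells had 4.15%, 4.43% and 7.24% in treated mice, against 3.36%, 4.84% and 2.65% in vehicle mice, the highest share of the tested classes in treated 3 and vehicle 1. The log2 ratio of mitochondrial to nuclear UMIs was, among the tested classes, highest in B cells in 6 of 6 mice, at 2.01, 2.21 and 2.76 in treated mice, against 0.35, 2.22 and 1.41 in vehicle mice, while 22 islet endocrine cells of treated 1 reached 2.37. In tumour cells it was 0.74, 0.89 and 1.77 in treated mice, against -0.14, 1.00 and 0.11 in vehicle mice. These shares are of cells kept at no more than 20% mitochondrial UMIs, a limit that acts on the mitochondrial members directly.

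**Figure D1:**
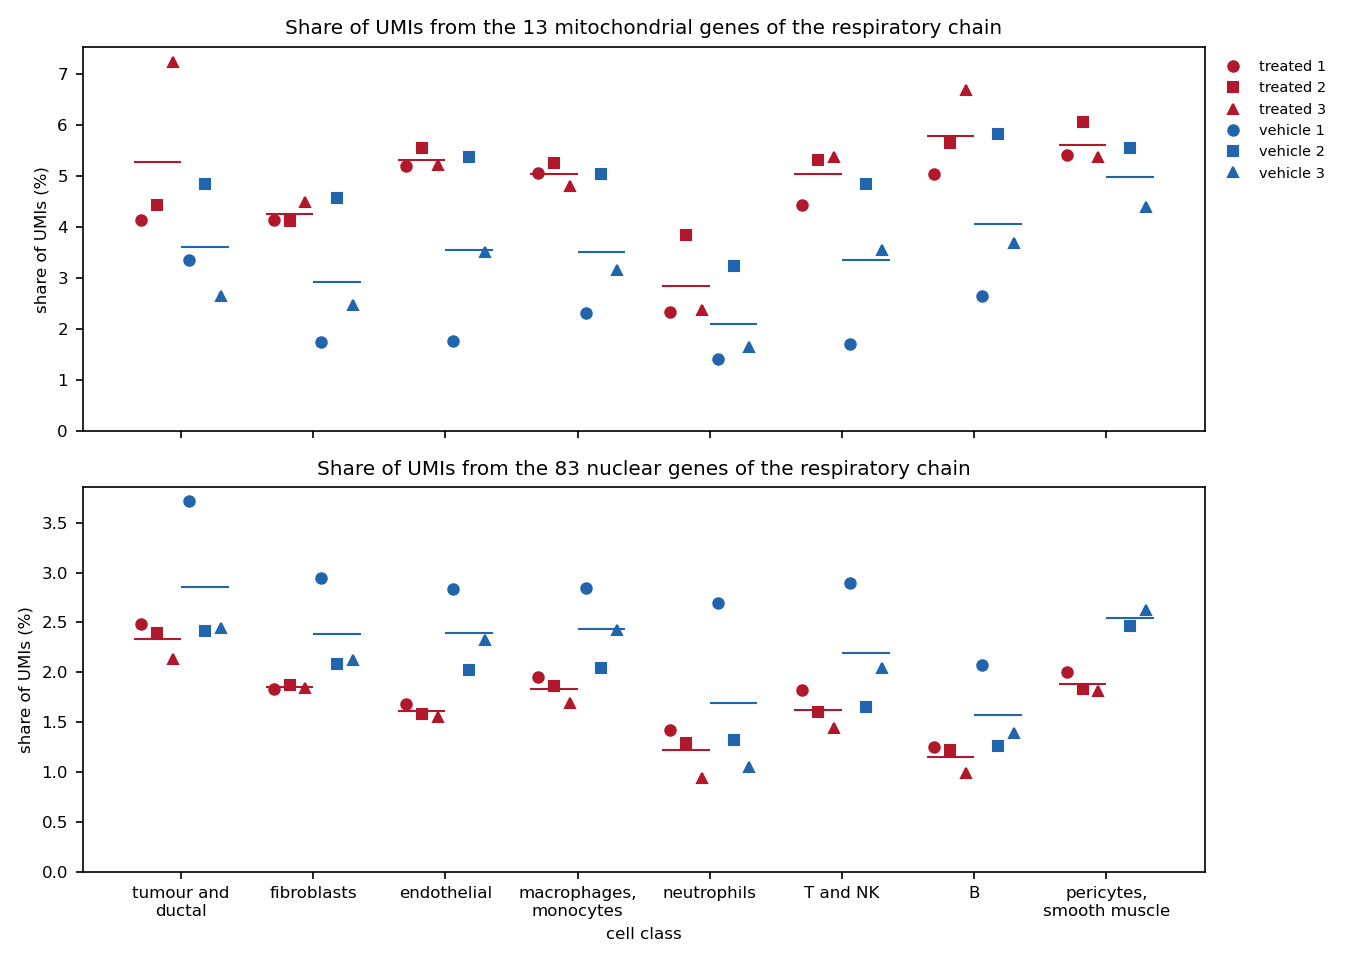
Share of a class's UMIs that came from the 13 mitochondrial members (top) and the 83 nuclear members (bottom), in percent, for 8 cell classes; each symbol is a mouse, red for treated and blue for vehicle, and lines are group means. Vehicle 1 has the highest nuclear share in each of the 7 tested classes, and tumour and ductal cells exceed the other 6 tested classes in nuclear share within each mouse; pericytes and smooth muscle exceed them in vehicle 2 and vehicle 3.

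Within the nuclear members, complexes I and V kept close proportions, and the small share of complex II varied more. In tumour cells, complex I held 32.9%, 32.9% and 33.3% of nuclear member UMIs in treated mice, against 31.4%, 30.8% and 31.5% in vehicle mice. Complex V held 30.3%, 29.9% and 30.6% in treated mice, against 31.2%, 31.4% and 32.1% in vehicle mice. For complex I every treated mouse lay above every vehicle mouse, and for complex V every treated mouse lay below. The order for complex I depends on Ndufa4, counted there by its symbol. Without Ndufa4, vehicle 1 lay among the treated mice. Complex II, the smallest, held 1.39%, 1.34% and 1.46% in treated mice, against 1.10%, 1.28% and 0.867% in vehicle mice. Its share was also larger in every treated mouse in endothelial cells, at 1.67%, 1.51% and 1.57% in treated mice, against 1.03%, 1.49% and 1.15% in vehicle mice, where the gap to vehicle 2 was small. In fibroblasts complex I held 36.5%, 35.7% and 35.5% in treated mice, against 33.6%, 33.6% and 33.8% in vehicle mice.

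The order of the 7 tested classes was compared gene by gene, leaving out the classes with too few cells in some mice. Of the nuclear members, 11 were at their highest in tumour and ductal cells in 6 of 6 mice: Ndufa4, Ndufa7, Ndufa9, Ndufab1, Ndufb4, Ndufb8 and Ndufv1 of the complex I symbols, Uqcr11 of complex III, and Atp5j2, Atp5k and Atp5md of complex V. Ndufa4 had 1209, 1190 and 872 CPM in tumour cells of treated mice and 1038, 892 and 994 CPM in those of vehicle mice. In fibroblasts it had 428, 476 and 402 CPM in treated mice and 519, 545 and 588 CPM in vehicle mice, so tumour cells were above fibroblasts in every mouse. Ndufa8, an accessory subunit of complex I imported into the intermembrane space, was highest in endothelial cells in 6 of 6 mice, at 223, 186 and 233 CPM in treated mice and 309, 289 and 319 CPM in vehicle mice. Uqcrh, the hinge protein of complex III, was highest in T and NK cells, at 770, 733 and 660 CPM in treated mice and 1271, 760 and 808 CPM in vehicle mice, and lowest in neutrophils, at 261, 276 and 234 CPM in treated mice and 452, 323 and 267 CPM in vehicle mice. B cells were the lowest of the 7 tested classes in 6 of 6 mice for 9 nuclear members, among them Cox5b, Cox6b1 and Ndufa8. Neutrophils were the lowest of the 7 for 4 nuclear members and for 4 mitochondrial members, mt-Co1, mt-Co2, mt-Nd4 and mt-Cytb. These orders leave out plasma cells and other rare classes, describe the classes and were not tested, since classes are clusters of the same cells.

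Several subunits of complex IV come in paired isoforms, and some minor partners were concentrated in few classes. Cox4i2, the lung and hypoxia-linked isoform of subunit IV (chr2:152754173-152765037, plus strand), stood at 233, 218 and 216 CPM in pericytes and smooth muscle cells of treated mice and at 310 and 140 CPM in those of vehicle 2 and vehicle 3; vehicle 1 had under 20 such cells. It had 2.14, 7.80 and 9.06 CPM in fibroblasts of treated mice and 32.9, 6.50 and 5.87 CPM in those of vehicle mice, and 0 UMIs in B and in T and NK cells of all 6 mice. Its ubiquitous partner Cox4i1 was found in all 7 classes, with 904, 917 and 1125 CPM in tumour cells of treated mice and 1776, 1139 and 1336 CPM in those of vehicle mice. Ndufa4l2, a hypoxia-induced relative of Ndufa4 (chr10:127514967-127517154, plus strand), shared the class of Cox4i2: it had 922, 972 and 918 CPM in pericytes and smooth muscle of treated mice and 1133 and 455 CPM in those of vehicle 2 and vehicle 3. Fibroblasts were next, with 124, 178 and 371 CPM in treated mice and 258, 40.0 and 75.2 CPM in vehicle mice, where the groups overlapped. Cox6a2, the heart and muscle isoform of subunit VIa, reached 1142 CPM in plasmacytoid dendritic cells, which numbered at least 20 in vehicle 3 alone, and no more than 4.55 CPM in other classes. Plasma cells also held Cox4i2, at 44.4 CPM in treated 3 and 205 and 48.4 CPM in vehicle 1 and vehicle 2. The few UMIs of these isoforms elsewhere may include free RNA, which was not measured.

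**Figure D2:**
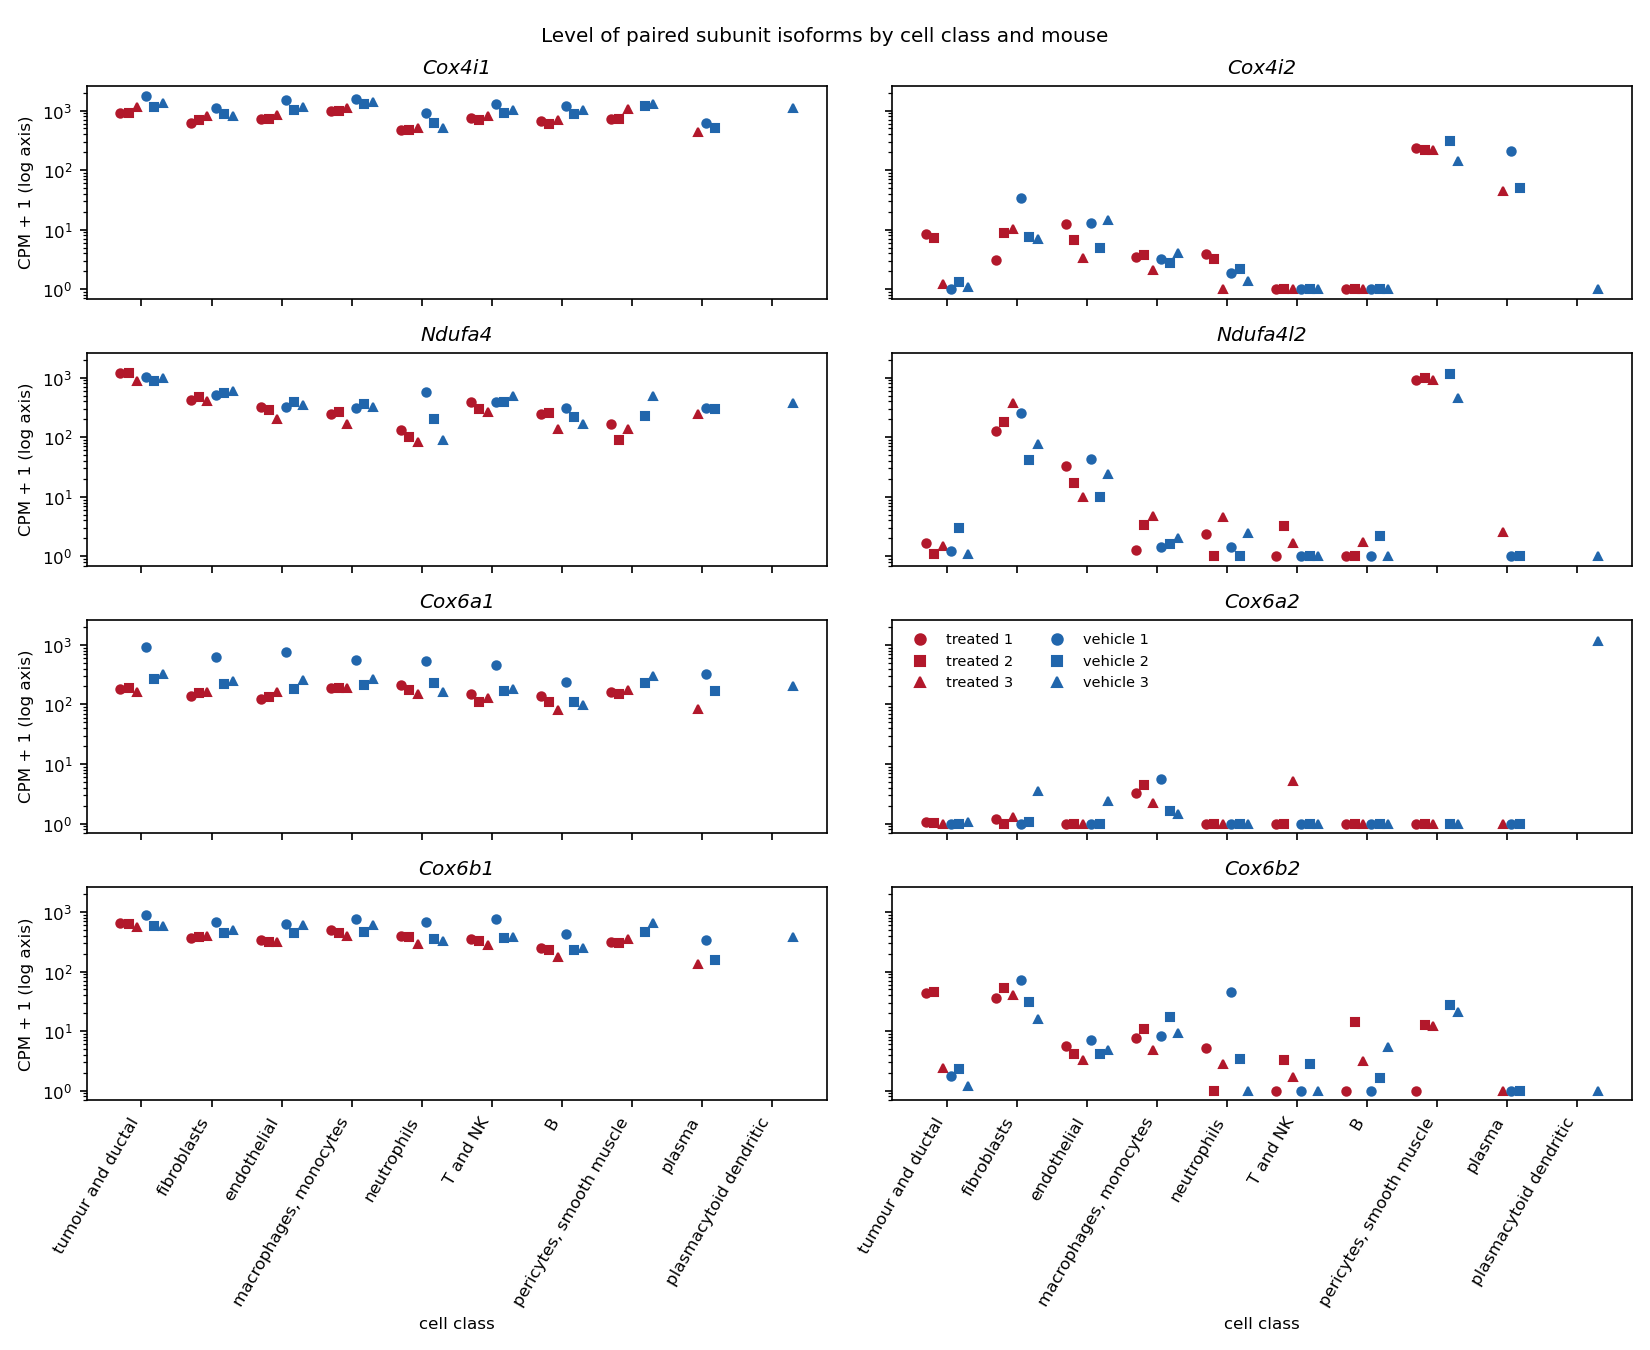
Level of 4 pairs of subunit isoforms (CPM plus 1, log axis) by cell class, with the common isoform left and its minor partner right; each symbol is a mouse with at least 20 cells of the class, red for treated and blue for vehicle. Cox4i2 and Ndufa4l2 peak in pericytes and smooth muscle, Cox6a2 appears in plasmacytoid dendritic cells of vehicle 3, and Cox6b2 in tumour cells is high in treated 1 and treated 2. Cox4i2 also appears in plasma cells.

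Cox6b2, the testis isoform of subunit VIb (chr7:4751792-4753094, minus strand), set treated 1 and treated 2 apart. In tumour cells it had 43.1, 45.2 and 1.38 CPM in treated mice and 0.775, 1.32 and 0.181 CPM in vehicle mice. All treated values lay above all vehicle values, but treated 3 was close to vehicle 2. The log2 fold change was 5.04 with a standard error of 1.35, and the adjusted p was 0.415 in edgeR's quasi-likelihood test and 7.19e-04 in DESeq2. Cox4i2 in tumour cells was also high in treated 1 and treated 2 alone, at 7.45, 6.26 and 0.234 CPM in treated mice and 0, 0.318 and 0.0844 CPM in vehicle mice, with an adjusted p of 0.415 in edgeR and 0.0163 in DESeq2. Over all genes the tumour cells of treated 1 and treated 2 were close, with an SD of log2 differences of 0.23, against at least 0.68 for every other pair of mice. Cox6b2 was not confined to tumour cells: fibroblasts had 35.2, 52.4 and 40.2 CPM in treated mice and 71.2, 29.6 and 15.2 CPM in vehicle mice. The remaining isoform families had overlapping groups or a high vehicle 1 in tumour cells. For Cox4i1, Cox6a1 and Atp5g1 every treated mouse also lay below vehicle 2 and vehicle 3. Cox8a, the common subunit VIII, had 1271, 1301 and 789 CPM in treated mice and 1994, 1282 and 981 CPM in vehicle mice. Cox7a2l, which helps join complexes III and IV, had 271, 270 and 484 CPM in treated mice and 426, 405 and 365 CPM in vehicle mice, and Cox7a1, the muscle form, 5.10, 6.72 and 6.26 CPM in treated mice and 8.37, 4.75 and 4.03 CPM in vehicle mice. The c-ring gene Atp5g2 had 609, 514 and 489 CPM in treated mice and 523, 526 and 559 CPM in vehicle mice, whereas Atp5g1, which encodes the same mature protein, had 347, 308 and 305 CPM in treated mice and 547, 402 and 373 CPM in vehicle mice, with every treated mouse below.

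The design sets treatment against vehicle within each class. No member passed an adjusted p of 0.05 in any of the 7 classes (edgeR, Benjamini-Hochberg over all genes of the class), and of all genes tested 0.878% were called lower in treated endothelial cells, 0.148% higher there, 0.0985% lower and 0.0197% higher in T and NK cells, and 0% in either direction in the other 5 classes. At an unadjusted p under 0.05, the nuclear members lower in treated mice numbered 53 of 80 in endothelial cells (11.8% of all genes tested), 26 of 81 in fibroblasts (8.05%), 24 of 82 in tumour cells (6.37%), 5 of 78 in T and NK cells (2.42%), 4 of 78 in neutrophils (4.73%), 2 of 82 in macrophages and monocytes (5.62%) and 2 of 61 in B cells (1.8%). The remaining members were below the count filter of the class. DESeq2 called 7 nuclear members lower in endothelial cells (1.57% of all genes), 4 lower (1.37%) and 0 higher (1.23%) in fibroblasts, 2 lower (1.18%) and 2 higher (1.61%) in tumour cells, and in macrophages and monocytes 0 members lower (1.31%) and 1 mitochondrial member higher (1.04%). The labels number the mice of each group, and the p-values measure the spread between them.

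The fitted fold changes of the nuclear members lay below 0 in most cases and those of the mitochondrial members above 0. Nuclear members below 0 numbered 80 of 82 in tumour cells, 77 of 81 in fibroblasts, 78 of 80 in endothelial cells, 75 of 82 in macrophages and monocytes, 77 of 78 in neutrophils, 70 of 78 in T and NK cells and 56 of 61 in B cells. Mitochondrial members above 0 numbered 11 of 13 in tumour cells and neutrophils, 12 of 13 in fibroblasts, endothelial cells, macrophages and monocytes, and T and NK cells, and 11 of 12 in B cells. The median nuclear log2 fold change was -0.60 in endothelial cells, -0.56 in tumour cells, -0.48 in fibroblasts, -0.38 in macrophages and monocytes, -0.95 in neutrophils, -0.33 in T and NK cells and -0.40 in B cells, beside medians over all genes tested of -0.07 to 0.01. Without vehicle 1 the nuclear medians were -0.51, -0.39, -0.26, -0.14, 0.01, -0.11 and -0.15 in the same classes, so that the neutrophil median passed 0 and endothelial and tumour cells kept the most. The mitochondrial medians ranged from 0.30 to 0.65 over the classes, and from 0.25 to 0.50 without vehicle 1. TMM scaling moved all genes of tumour cells: with library sizes alone the median of all genes was 0.25 there, 0.15 in fibroblasts and 0.11 in endothelial cells, and the nuclear medians were -0.23, -0.30 and -0.48.

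**Figure D3:**
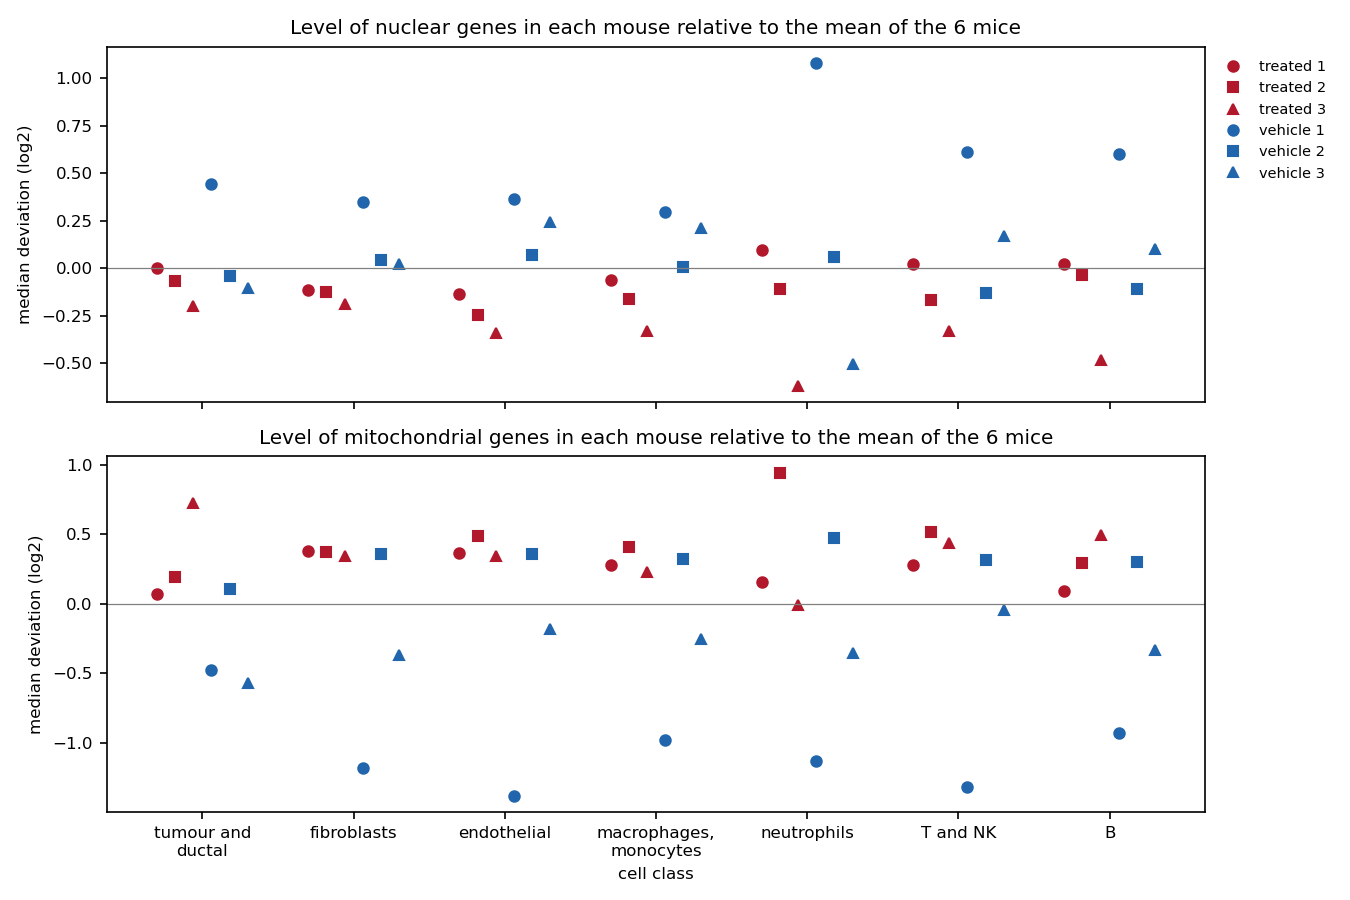
Median over nuclear members (top) and mitochondrial members (bottom) of each mouse's deviation from the mean of the 6 mice (log2), by cell class; red symbols are treated and blue are vehicle mice. Vehicle 1 is the top nuclear and, outside tumour cells, the bottom mitochondrial point of each class; in endothelial cells the treated mice lie at -0.13, -0.25 and -0.34 for nuclear members, below vehicle 2 at 0.07 and vehicle 3 at 0.24.

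The genomes were also set against each other as a ratio within each mouse. In endothelial cells the log2 ratio of mitochondrial to nuclear UMIs was 1.62, 1.81 and 1.75 in treated mice, against -0.67, 1.41 and 0.60 in vehicle mice, with no overlap between the groups. Its mean was 1.73 ± 0.0948 in treated mice and 0.45 ± 1.05 in vehicle mice (SD, n = 3 each), a difference of 1.28, which was 0.72 without vehicle 1. Groups also did not overlap in fibroblasts, where the ratio was 1.18, 1.14 and 1.29 in treated mice, against -0.75, 1.13 and 0.22 in vehicle mice, or in macrophages and monocytes, where it was 1.37, 1.498 and 1.51 in treated mice, against -0.29, 1.30 and 0.39 in vehicle mice. In fibroblasts treated 2 lay just above vehicle 2. Tumour cells, neutrophils, T and NK cells and B cells had overlapping groups, since vehicle 2 reached 1.00, 1.30, 1.55 and 2.22 there. The vehicle mice spread further among themselves than the treated mice in these classes, and the ratio was not tested.

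By complex, complex II stood nearest to 0 with all 6 mice. In endothelial cells the nuclear medians were -0.53 for complex I, -0.25 for complex II, -0.53 for complex III, -0.77 for complex IV and -0.62 for complex V. In tumour cells they were -0.53, -0.21, -0.71, -0.54 and -0.72, and in fibroblasts -0.42, -0.16, -0.52, -0.67 and -0.62, in the same order of complexes. Without vehicle 1 they were -0.38, -0.22, -0.51, -0.63 and -0.53 in endothelial cells, -0.34, -0.0047, -0.61, -0.38 and -0.57 in tumour cells, and -0.22, -0.10, -0.26, -0.27 and -0.31 in fibroblasts. In macrophages and monocytes complex II was at 0.06 and the others between -0.35 and -0.51; without vehicle 1 it was at 0.15 and the others between -0.09 and -0.20, so that it was no longer nearest to 0 there. All 17 nuclear members of complex V lay below 0 in tumour cells, fibroblasts and endothelial cells, with and without vehicle 1. Complex II rests on 4 genes, whose annotated transcript lengths of 815 to 1811 bases are longer than the nuclear members' median.

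**Figure D4:**
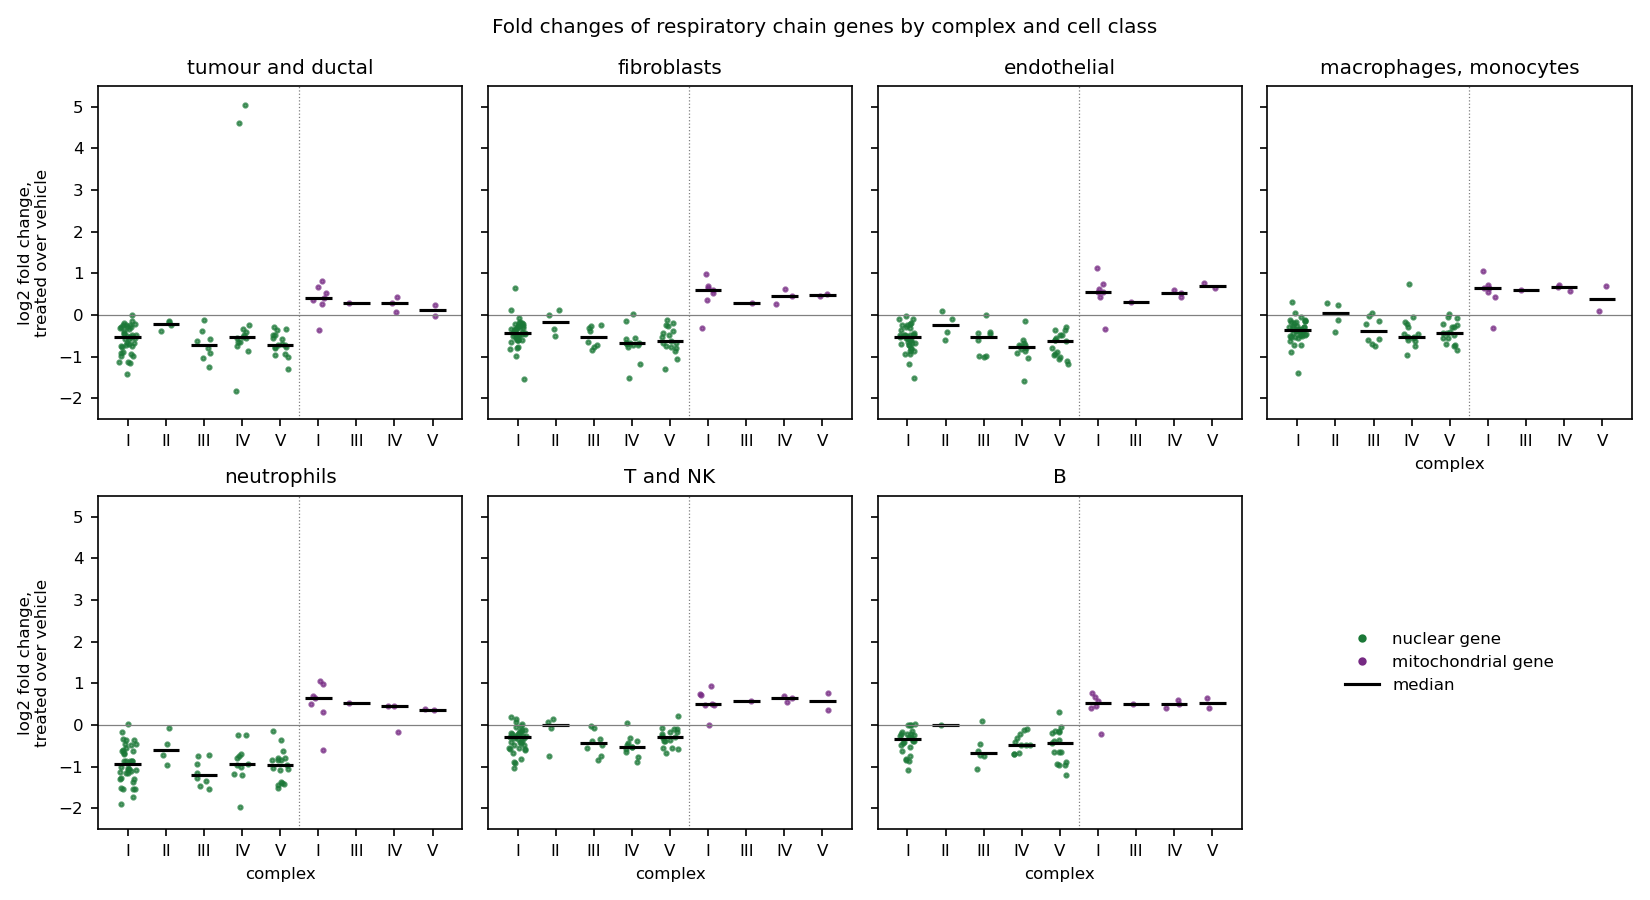
Log2 fold change, treated over vehicle, of each member tested, by complex and cell class; green points left of the dotted line are nuclear genes, purple points right of it are mitochondrial genes, and black bars are medians. Nuclear points lie mostly below 0 and mitochondrial points mostly above, complex II is nearest 0, and the 2 points above 4 in tumour cells are Cox6b2 and Cox4i2.

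Endothelial cells held the most members with groups apart. There 53 of 80 nuclear members tested had every treated mouse below every vehicle mouse, against 9.92% of all genes tested, and 59 did so against vehicle 2 and vehicle 3 alone (18.6%). In complex I, Ndufa12, an accessory subunit, had 110, 116 and 120 CPM in treated mice and 182, 179 and 190 CPM in vehicle mice. The groups were apart, and vehicle 1 lay between the other vehicle mice. Its log2 fold change was -0.79 with a standard error of 0.18, and edgeR's adjusted p was 0.0674, 0.0252 without vehicle 1, and 0.123 in DESeq2. Ndufb6, another accessory subunit, had 75.7, 63.4 and 74.3 CPM in treated mice and 66.7, 119 and 118 CPM in vehicle mice, where vehicle 1 was as low as the treated mice. In complex III, Uqcrq, a small ubiquinone-binding subunit, had 258, 230 and 246 CPM in treated mice and 509, 349 and 487 CPM in vehicle mice, with a log2 fold change of -0.99, a standard error of 0.24 and an adjusted p of 0.0724 in edgeR, 0.0363 without vehicle 1 and 0.0289 in DESeq2. Uqcr10, a small membrane subunit, had 189, 176 and 183 CPM in treated mice and 424, 234 and 361 CPM in vehicle mice. All treated values lay below all vehicle values for both genes.

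Complexes IV and V of endothelial cells also had members with separate groups. Cox5b, a zinc-binding subunit, had 238, 208 and 213 CPM in treated mice and 461, 338 and 438 CPM in vehicle mice, a log2 fold change of -1.02 with an adjusted p of 0.0621 in edgeR, 0.0252 without vehicle 1 and 0.0180 in DESeq2. Cox6b1, the common subunit VIb, had 344, 313 and 317 CPM in treated mice and 636, 440 and 615 CPM in vehicle mice. No treated mouse reached a vehicle mouse for either. Atp5g1 had 226, 205 and 181 CPM in treated mice and 327, 365 and 438 CPM in vehicle mice, so that vehicle 1 was the lowest of the vehicle mice. Its log2 fold change was -1.02 with a standard error of 0.21, and the adjusted p was 0.0527 in edgeR, 0.0123 without vehicle 1 and 0.0129 in DESeq2. Atp5o, the stalk subunit OSCP, had 150, 151 and 168 CPM in treated mice and 242, 285 and 265 CPM in vehicle mice, and its log2 fold change of -0.88 (standard error 0.19) had an adjusted p of 0.0576 in edgeR, 0.0128 without vehicle 1 and 0.0396 in DESeq2. Without vehicle 1, edgeR called 9 nuclear members lower (4.58% of all genes tested) and mt-Nd6 higher (1.41%). Without vehicle 2 it called 13 lower (1.36%).

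Complex II differed within itself in endothelial cells. Sdhb, the iron-sulphur subunit, had 88.8, 70.3 and 63.2 CPM in treated mice and 121, 101 and 99.6 CPM in vehicle mice (log2 fold change -0.60, edgeR adjusted p 0.148). Sdhc, a membrane anchor, had 52.4, 51.6 and 51.1 CPM in treated mice and 90.9, 60.7 and 57.1 CPM in vehicle mice (edgeR adjusted p 0.349). Both had all treated mice below all vehicle mice. Sdha had 85.9, 72.1 and 77.1 CPM in treated mice and 48.5, 76.5 and 67.0 CPM in vehicle mice, with a log2 fold change of 0.11 and overlapping groups.

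Fold changes by transcript length, and RNAs that can mark lost cytoplasm or stress, were also read in endothelial cells. Among other protein-coding genes of endothelial cells, the median log2 fold change was -0.25 for transcripts under 800 bases, -0.16 from 800 to under 1600 bases, 0.03 from 1600 to under 3200 bases and 0.19 for longer ones. The nuclear members were at -0.72, -0.38 and -0.48 in the first 3 of these bins, and at -0.56, -0.35 and -0.53 without vehicle 1. These bins held 48, 26 and 5 nuclear members in endothelial cells, placed by annotated length, which need not be that of the RNA expressed. With every mouse included, the members' median was below that of the other genes in each of these bins. The part of length in the members' fold changes was not tested. Summed long nuclear RNAs (5 genes led by Gm42418 and Malat1), a sign of lost cytoplasm, stood at 90420, 116234 and 60669 CPM in treated mice and 12264, 20430 and 21601 CPM in vehicle mice in endothelial cells. Gm42418, which overlaps ribosomal RNA sequence, gave most of that, with 73367, 96600 and 46675 CPM in treated mice and 345, 7677 and 11448 CPM in vehicle mice. The 11 genes of dissociation stress summed to 7115, 6642 and 4219 CPM in treated mice and 2478, 4600 and 3763 CPM in vehicle mice. Fitted fold changes were above 0 for 4 of 4 long nuclear RNAs tested and for 8 of 11 stress genes. The 10 markers of macrophages and monocytes summed to 35.8, 34.2 and 66.0 CPM in endothelial cells of treated mice and 260.5, 86.9 and 113 CPM in those of vehicle mice, with 4 of 4 tested below 0 and none at 0 UMIs. The part of these RNAs in the members' results was not tested.

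In fibroblasts 29 of 81 nuclear members had every treated mouse below every vehicle mouse (5.61% of all genes tested), 33 lay below vehicle 2 and vehicle 3 alone (15.8%), and complex V led. Atp5g1 had 344, 320 and 359 CPM in treated mice and 502, 556 and 529 CPM in vehicle mice, with a log2 fold change of -0.80 and an adjusted p of 0.189 in edgeR, 0.0861 without vehicle 1 and 1.81e-04 in DESeq2. Atp5o had 219, 228 and 233 CPM in treated mice and 286, 371 and 310 CPM in vehicle mice (adjusted p 0.211 in edgeR, 0.0897 without vehicle 1 and 0.00371 in DESeq2), and Atp5b, the catalytic beta subunit, had 339, 353 and 355 CPM in treated mice and 414, 564 and 463 CPM in vehicle mice (0.224 in edgeR, 0.10 without vehicle 1 and 0.00911 in DESeq2). Vehicle 1 was the lowest vehicle mouse for all 3. Ndufa11, a membrane-arm subunit of complex I, had 247, 229 and 209 CPM in treated mice and 293, 327 and 305 CPM in vehicle mice (0.224 in edgeR, 0.112 without vehicle 1 and 0.0286 in DESeq2). Fibroblast long nuclear RNAs summed to 62114, 66739 and 36597 CPM in treated mice and 15489, 13030 and 18439 CPM in vehicle mice. The sum includes Gm42418, which overlaps ribosomal RNA sequence, and the part of these RNAs was not tested. Markers of fibroblasts themselves summed to 37343, 38584 and 37873 CPM in treated mice and 24801, 31079 and 32428 CPM in vehicle mice.

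In tumour and ductal cells 11 of 82 nuclear members had every treated mouse below every vehicle mouse (3.31% of all genes tested) and 13 lay below vehicle 2 and vehicle 3 alone (6.87%); edgeR's adjusted p was 0.415 for each gene named here, and 0.310 to 0.322 without vehicle 1. Ndufv2, an iron-sulphur subunit of the NADH-binding module of complex I, had 84.5, 68.9 and 108 CPM in treated mice and 167, 136 and 110 CPM in vehicle mice, and Ndufs8, an iron-sulphur subunit, had 129, 119 and 90.7 CPM in treated mice and 184, 150 and 161 CPM in vehicle mice. The log2 fold changes were -0.98 and -0.89 (-0.88 for both without vehicle 1), and treated 3 lay just below vehicle 3 for Ndufv2. Uqcr10 had 191, 168 and 185 CPM in treated mice and 441, 266 and 314 CPM in vehicle mice, a log2 fold change of -1.24 with a standard error of 0.28 (-1.10 without vehicle 1), and DESeq2's adjusted p was 0.0131. Uqcrq had 298, 288 and 244 CPM in treated mice and 448, 369 and 494 CPM in vehicle mice. Cox6a1, the common subunit VIa, had 181, 189 and 160 CPM in treated mice and 922, 266 and 323 CPM in vehicle mice; its log2 fold change was -1.81, and -1.16 without vehicle 1, with an adjusted p of 0.0347 in DESeq2. Treated and vehicle mice did not overlap for these 3 genes. In complex V, Atp5h, the stalk subunit d, had 415, 370 and 482 CPM in treated mice and 644, 612 and 481 CPM in vehicle mice, and Atp5d, the delta subunit, had 373, 322 and 402 CPM in treated mice and 493, 531 and 461 CPM in vehicle mice. The groups overlapped slightly for Atp5h and were apart for Atp5d.

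The anchors of complex II in tumour cells turned on vehicle 1. Sdhd, a membrane anchor, had 83.6, 75.4 and 77.8 CPM in treated mice and 131, 71.7 and 49.5 CPM in vehicle mice, with a log2 fold change of -0.38 (edgeR adjusted p 0.660) that was 0.01 without vehicle 1. Sdhc had 71.8, 71.0 and 78.2 CPM in treated mice and 104, 63.7 and 45.8 CPM in vehicle mice, with -0.25 (edgeR adjusted p 0.741) and 0.05 without vehicle 1. Sdha had 54.3, 55.9 and 84.9 CPM in treated mice and 49.3, 79.7 and 44.2 CPM in vehicle mice (log2 fold change -0.14, and -0.28 without vehicle 1). Sdhb had 136, 118 and 69.9 CPM in treated mice and 126, 94.2 and 72.5 CPM in vehicle mice (-0.17, and -0.02 without vehicle 1). The groups overlapped for all 4 genes of the complex. The CPM are without TMM scaling and the fold changes with it, so their directions can differ. For Sdha and Sdhb the mean CPM was higher in treated mice although the fold change was below 0. Long nuclear RNAs in tumour cells, Gm42418 among them, summed to 40513, 54411 and 26161 CPM in treated mice and 11820, 21624 and 7919 CPM in vehicle mice, with 3 of 5 above 0. The 11 stress genes summed to 4904, 4186 and 5120 CPM in treated mice and 2277, 3732 and 2235 CPM in vehicle mice. The part of both lists in the members' values was not tested. Other genes under 800 bases had a median of -0.26 in tumour cells and members of that length -0.65, or -0.22 and -0.38 without vehicle 1.

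The blood-derived classes differed in how many nuclear members had separate groups. Every treated mouse lay below every vehicle mouse for 30 of 82 nuclear members in macrophages and monocytes (11% of all genes tested), 16 of 78 in T and NK cells (5.71%), 8 of 61 in B cells (5.1%) and 0 of 78 in neutrophils (3.13%). Against vehicle 2 and vehicle 3 alone the counts were 34 in macrophages and monocytes (25.5%), 18 in T and NK cells (15.3%), 9 in B cells (12.1%) and 0 in neutrophils (8.49%). In macrophages and monocytes Atp5o had 202, 209 and 196 CPM in treated mice and 273, 289 and 296 CPM in vehicle mice, and the spread within each group was small beside the gap. Neutrophils had the lowest median fold change of the classes, and it was 0.01 without vehicle 1.

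Of the 13 mitochondrial genes, mt-Nd3 alone had every treated mouse above every vehicle mouse in all 7 classes. This small subunit of complex I had 628, 792 and 1103 CPM in tumour cells of treated mice and 561, 462 and 530 CPM in those of vehicle mice. In macrophages and monocytes it had 586, 726 and 701 CPM in treated mice and 371, 488 and 441 CPM in vehicle mice, a log2 fold change of 0.66 with an adjusted p of 0.313 in edgeR and 0.0318 in DESeq2. In endothelial cells it had 514, 670 and 678 CPM in treated mice and 291, 447 and 425 CPM in vehicle mice (edgeR adjusted p 0.225). The share of all genes tested that had every treated mouse above every vehicle mouse was 19.9% in tumour cells, 19.6% in fibroblasts, 17.5% in endothelial cells, 6.1% in macrophages and monocytes, 5.62% in neutrophils, 4.45% in T and NK cells and 4.27% in B cells, and 5, 4, 5, 4, 1, 1 and 2 mitochondrial members did so in the same classes. mt-Nd5, a proton-pumping subunit of complex I, did so in 5 classes, with 676, 769 and 891 CPM in tumour cells of treated mice and 302, 414 and 429 CPM in those of vehicle mice. mt-Nd6 did so in 4 classes.

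mt-Nd6, the membrane subunit of complex I and the only member read from the minus strand of mitochondrial DNA (chrM:13552-14070), had 79.7, 97.0 and 81.3 CPM in endothelial cells of treated mice and 6.06, 49.1 and 33.0 CPM in those of vehicle mice. Its log2 fold change there was 1.12 with a standard error of 0.29 and an adjusted p of 0.0856 in edgeR, 0.0757 in DESeq2 and 0.0224 in edgeR without vehicle 1. In tumour cells it had 39.0, 48.0 and 33.8 CPM in treated mice and 7.44, 18.4 and 26.0 CPM in vehicle mice. mt-Atp8 lay above in every treated mouse in 2 classes, mt-Co1, a catalytic subunit of complex IV, in 2, and mt-Nd2 and mt-Nd4l, both of complex I, in 1 each. mt-Co1 was high in treated 3 in tumour cells, with 5891, 6021 and 13597 CPM in treated mice and 6854, 7658 and 4947 CPM in vehicle mice. mt-Co2, mt-Co3, mt-Atp6, mt-Cytb, mt-Nd1 and mt-Nd4 had overlapping groups in all 7 classes, and vehicle 2 lay above at least 1 treated mouse for each. mt-Cytb, cytochrome b of complex III, had 4198, 4343 and 7525 CPM in tumour cells of treated mice and 2422, 5583 and 2578 CPM in those of vehicle mice. mt-Nd1 had a fitted log2 fold change below 0 in tumour cells, at -0.35, with 2241, 2706 and 4007 CPM in treated mice and 4218, 3145 and 1922 CPM in vehicle mice.

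Overlapping mitochondrial genes differed in ratio between libraries in every class. Per 100 UMIs of mt-Nd4, the UMIs of mt-Nd4l over the 7 classes ranged from 16.4 to 26.5 in treated 1, 14.4 to 23.1 in treated 2 and 7.42 to 9.32 in treated 3, and from 6.15 to 9.62 in vehicle 1, 7.30 to 9.50 in vehicle 2 and 15.97 to 19.5 in vehicle 3. Treated 1, treated 2 and vehicle 3 were thus high in every class and the other 3 low, a split that crosses the treatment. Per 100 UMIs of mt-Atp6, those of mt-Atp8 ranged from 1.06 to 2.53 in treated 1, 1.39 to 2.59 in treated 2 and 1.35 to 1.80 in treated 3, and from 2.98 to 4.37 in vehicle 1, 0.807 to 1.38 in vehicle 2 and 2.16 to 3.24 in vehicle 3. The shared bases printed above belong to both genes of each pair, so only a read lying wholly within them could not be told apart. The part of the overlaps in these ratios was not tested. Whether the genes of a pair lay on separate RNAs was not tested, so these are ratios of assigned reads.

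**Figure D5:**
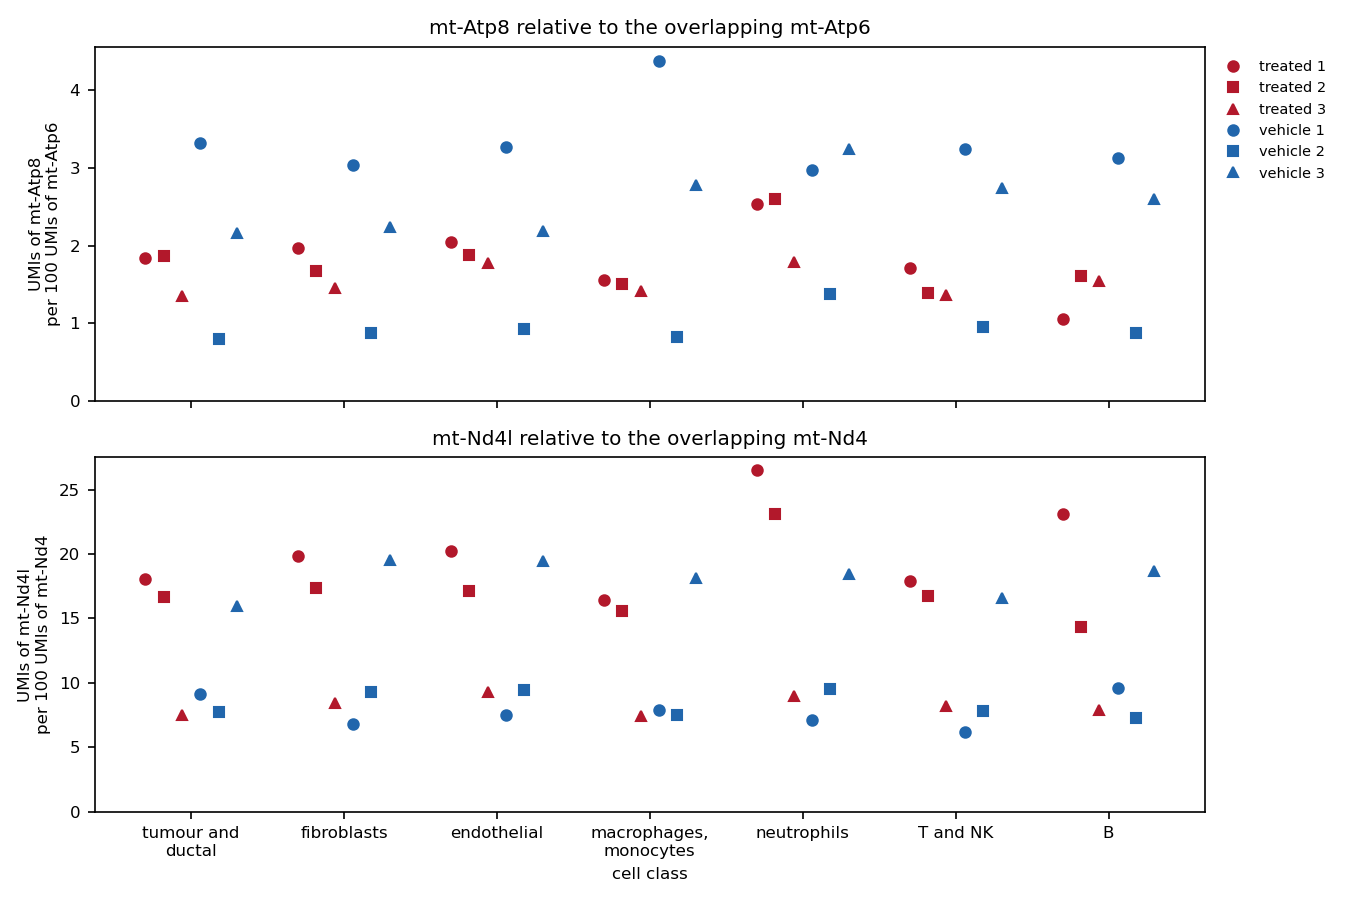
UMIs of mt-Atp8 per 100 UMIs of mt-Atp6 (top) and of mt-Nd4l per 100 UMIs of mt-Nd4 (bottom) by cell class; each symbol is a mouse, red for treated and blue for vehicle. In the lower panel treated 1, treated 2 and vehicle 3 lie at 14.4 or more in every class and treated 3, vehicle 1 and vehicle 2 at 9.62 or less.

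Whether members responded differently in tumour cells than in other cells of the same mice was tested with a class by treatment term. No member differed from endothelial cells, from fibroblasts or from macrophages and monocytes at an adjusted p of 0.05 in edgeR, nor did any of the 13828, 15326 and 15387 genes tested (0% each). At an unadjusted p under 0.05 there were 4, 4 and 5 nuclear members and 0 mitochondrial members. The smallest adjusted p of a member was 0.273, for Cox6b2 against macrophages and monocytes. Without treated 3, Cox6b2 was called in that comparison, along with 1.06% of all genes.

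Beyond the subunits, Cycs, the electron carrier cytochrome c, was lower in treated endothelial cells. It had 96.2, 88.3 and 79.9 CPM in treated mice and 188, 177 and 205 CPM in vehicle mice, a log2 fold change of -1.22 with a standard error of 0.19 and an adjusted p of 0.0177 in edgeR, which was 0.00473 without vehicle 1, ranged up to 0.154 when other single mice were left out and was 0.121 with treated 1 and treated 2 summed. Cycs was the 1 call among 18 electron carriers and feeders tested, beside 0.878% of all genes called lower. Of 78 genes of the mitochondrial ribosome, which translates the mitochondrial members, 77 lay below 0 with a median of -0.62, 51 were lower at an unadjusted p under 0.05 (11.8% of all genes tested), and Mrpl42 and Mrpl12 were called lower (0.878% of all genes). Mrpl12 had 68.9, 77.7 and 65.5 CPM in treated mice and 133, 121 and 133 CPM in vehicle mice (log2 fold change -0.96, edgeR adjusted p 0.0392, and 0.0137 without vehicle 1), and Mrpl42 had 60.9, 42.9 and 52.0 CPM in treated mice and 96.9, 114 and 87.8 CPM in vehicle mice (-1.04, 0.0378, and 0.0134 without vehicle 1). Pink1, a kinase that marks damaged mitochondria for mitophagy, was the call among 16 mitophagy genes and was higher (0.148% of all genes), with 62.6, 64.7 and 60.4 CPM in treated mice and 18.2, 32.5 and 28.8 CPM in vehicle mice, a log2 fold change of 1.00, an edgeR adjusted p of 0.0477, 0.0166 without vehicle 1, and a DESeq2 one of 0.106. All 4 calls were lost with treated 1 and treated 2 summed. No call was made among 46 assembly factors (median -0.36), 22 genes of mitochondrial DNA and RNA upkeep (-0.06), 10 regulators of mitochondrial biogenesis (0.18) or 17 genes of the TCA cycle (-0.20) in endothelial cells, where 5, 1, 0 and 1 were lower at an unadjusted p under 0.05, beside 11.8% of all genes tested.

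In tumour cells none of these lists held a call. The median was -0.54 for 78 mitochondrial ribosome genes, of which 29 were lower at an unadjusted p under 0.05 (6.37% of all genes tested), -0.40 for 49 assembly factors with 8, -0.44 for 20 electron carriers and feeders with 2, -0.42 for 17 TCA cycle genes with 4, -0.31 for 28 upkeep genes with 2, -0.18 for 17 mitophagy genes with 1 and 0.12 for 12 regulators with 1. Cycs averaged 259 ± 88.6 CPM in treated mice and 277 ± 19.4 CPM in vehicle mice (SD, n = 3 each), and Cyc1 132 ± 30.6 CPM in treated mice and 144 ± 28.5 CPM in vehicle mice. Mdh2, malate dehydrogenase of the TCA cycle, averaged 259 ± 35.1 CPM in treated mice and 402 ± 57.4 CPM in vehicle mice, and Suclg1, a subunit of succinate-CoA ligase, 180 ± 23.2 CPM in treated mice and 130 ± 39.2 CPM in vehicle mice. Uqcc2, an assembly factor of complex III, averaged 147 ± 4.22 CPM in treated mice and 313 ± 148 CPM in vehicle mice where vehicle 3 was the highest mouse.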

How the data were processed

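The 6 deposited matrices give unnormalized UMI counts, and the submitters' processing notes name Cell Ranger 5.0.1 and mm10. Cells needed at least 500 UMIs, 250 genes and at most 20% mitochondrial UMIs, and 0.8% of barcodes per 1000 were removed as doublets. Clustering left out the members (scanpy 1.11.5, Python 3.11.15); sub-clusters were named from marker sets and reviewed by hand, and 2.66% to 9.24% of a mouse's cells stayed unnamed. Counts were summed per mouse and class with at least 20 cells. Tests used edgeR 4.0.16 in R 4.3.3 (TMM, filterByExpr, robust quasi-likelihood, two-sided, Benjamini-Hochberg over all genes of a class at 0.05), checked on simulated data, with DESeq2 1.42.0, other filters, scalings, mitochondrial limits, doublets kept and single mice left out as alternatives. The class by treatment test was fitted on the sums of a pair of classes, with the mouse as a block.

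Named genes are members called, all 13 mitochondrial genes, the 2 nuclear members of each complex with the smallest p in tumour cells and in classes with a call, isoform families, and from related lists those called or else the 2 most abundant. Members named for their levels, for vehicle 1 or for DESeq2 calls were picked after their values were seen, as were all members named in endothelial cells, fibroblasts, and macrophages and monocytes. Members and lists were chosen with earlier results of these data known. Fold changes are log2, treated over vehicle. Sequences were copied from RefSeq and GENCODE M21 tables, and transcript length is the median over a gene's protein-coding transcripts.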

Additional observations from a re-analysis of the deposited data

How the results depend on the processing

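Edges of the results lay in the tool, the count filter and single mice. The number of members called was 0 in the edgeR analysis of each class. It was 7 in endothelial cells, 4 in fibroblasts, 4 in tumour cells and 1 in macrophages and monocytes with DESeq2, and 15 in endothelial cells with no filter on low counts (14 lower, beside 2.32% of all genes, and 1 higher, beside 0.818%). With single mice left out it ranged from 0 to 13 in endothelial cells and, for the class by treatment test against macrophages and monocytes, from 0 to 1. The other alternatives run on calls gave 0. The median nuclear fold change moved with library size alone to -0.23 in tumour cells and -0.30 in fibroblasts. With single mice left out it ranged from -0.58 to -0.26 in fibroblasts, -0.53 to -0.14 in macrophages and monocytes and -1.28 to 0.015 in neutrophils. Without vehicle 1 and with treated 1 and treated 2 summed, an alternative added after the data were seen, it was -0.27, -0.19 and -0.038 in these 3 classes. It was below 0 in 104 of 105 alternatives, and the mitochondrial median was above 0 in 105 of 105. The difference in log2 ratio between the genomes was above 0 in 84 of 84 alternatives, from 0.24 to 1.76. In tumour cells Sdhd ranged from -0.58 to 0.0068 with single mice left out and Sdhc from -0.40 to 0.052, both above 0 without vehicle 1 alone. With treated 1 and treated 2 also summed they were 0.016 and 0.090, and Sdhc was 0.054 with library size alone. The cause of these changes was not tested.

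The labels number the mice within each group and do not say that equal numbers form pairs. The correlation of same-numbered mice ranged from -0.19 to 0.21 over classes, which cannot by itself settle the pairing. With the replicate number as a block 0 members were called in each class. Depth limits the B, T and NK and endothelial results, with as few as 20, 42 and 48 cells in a mouse.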

Other observations

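Cox4i2, described above in pericytes and smooth muscle, was not confined to them. Plasma cells had 44.4 CPM in treated 3 and 205 and 48.4 CPM in vehicle 1 and vehicle 2, the mice with at least 20 such cells. Cox6b2 stood at 58.2 and 17.5 CPM in islet endocrine cells of treated 1 and treated 2, and at 170 CPM in red cells of vehicle 1.

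Over all deposited barcodes, before any cell was left out, the 13 mitochondrial members held 6.31%, 5.29% and 7.32% of UMIs in treated mice, against 2.91%, 5.58% and 3.07% in vehicle mice.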
